A study of Mus musculus with 912 samples.

Results

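The genes described here are 28 components of inhibitory synapses, chosen by name from the 42772 genes of the count tables. They comprised 11 subunits of the GABA-A receptor (Gabra2, Gabra3, Gabra4, Gabra5, Gabrb1, Gabrb2, Gabrg1, Gabrg3, Gabrd, Gabre and Gabrq), the 2 subunits of the GABA-B receptor (Gabbr1 and Gabbr2), 3 genes that make GABA or load it into vesicles (Gad1, Gad2 and Slc32a1), 2 GABA transporters of the plasma membrane (Slc6a11 and Slc6a13), 2 enzymes of GABA breakdown (Abat and Aldh5a1), 3 genes for receptor anchoring and trafficking (Gphn, Gabarap and Gabarapl1), 2 chloride transporters (Slc12a5 and Slc12a2) and 3 glycine receptor subunits (Glra2, Glra3 and Glrb). All 28 were present in the tables.

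GABA is the main inhibitory transmitter of the hippocampus. It is made from glutamate by the GAD enzymes, packed into vesicles by the transporter that Slc32a1 encodes, and received by GABA-A receptors, which are chloride channels built of several subunits, and by GABA-B receptors, which act through G proteins. Gephyrin, the product of Gphn, holds many GABA-A and glycine receptors at the synapse, and the chloride transporters set whether opening the channel inhibits the cell. Granule cells of the dentate gyrus (DG) are glutamatergic, although they are known to make the enzyme encoded by Gad1.

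RNA was sequenced from 912 single hippocampal nuclei of wild-type female C57BL6 mice aged 7.75 to 9 weeks, and the nuclei were sorted by antibody staining. In the first experiment (360 nuclei), mice stayed in the home cage (HC) or spent 15 min in an unfamiliar environment and were killed 1 h later. NEUN+ nuclei were sorted by PROX1 and CTIP2 into gates named PC (both proteins, holding DG nuclei), NC (CTIP2 only, CA1), PN (PROX1 only, VIP interneurons) and NN (neither), and by FOS, a protein made after activity. The depositors predicted a cell type for each nucleus from its RNA, namely DG, CA1, CA3, Sub (subiculum), VIP, Ivy, Pvalb or Th (thalamus). In the later experiment (552 nuclei), PROX1+CTIP2+ARC+ nuclei were sorted without NEUN 4 h or 5 h after 1 exposure to environment A, or 1 h after a second exposure that followed the first by 4 h and was to A again (A > A) or to a different environment (A > C). The 4 h and 5 h nuclei were FOS−, and the A > A and A > C nuclei were FOS+ or FOS−.

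After filtering, 783 nuclei remained, 303 of the first and 480 of the later experiment, with 142275 to 5885216 counts each. The mouse was taken as the replicate, and a group of 1 mouse was assumed to vary as the others do. In the first experiment, animals were separated by exposure, sorting date and label number, and in the later experiment by exposure and label number. Number 4 occurred on different dates in the gates NN and PN, described above, and was counted as different animals. FOS+ and FOS− sums of 1 mouse are not independent. Mouse 21 of 4 h, mice 19 and 20 of A > A and mouse 14 of A > C carried nuclei labelled with different ages. Such a number may cover more than 1 animal. Home cage DG nuclei came from 2 mice with enough nuclei (18 and 5), and the DG nuclei of 1 h, FOS+ and FOS− alike, came from 1 mouse. Home cage or 1 h groups and later groups came from different experiments and sorts, so that exposure and experiment cannot be told apart between them. DG markers (Prox1, Calb1, Dsp and C1ql2) summed to 20.0 and 21.0 log2 units in the 2 HC mice and to 9.91 to 16.4 in the mice of the later groups. Interneuron markers outside the 28 genes (Dlx1, Dlx6os1, Erbb4 and Sox6, of which 3 were found) summed to at most 0.503 in the DG mice of the first experiment, at most 1.20 in the later DG groups and 8.55 to 14.9 in VIP mice. The VIP markers (Vip, Cck and Calb2) summed to 1.56 to 21.2 over the VIP mice and 8.46 to 9.65 over the DG mice, so that they did not mark 1 VIP mouse.

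Levels are given as the mean of log2(TPM+1) over the nuclei of a mouse, then as the mean ± SD over mice. TPM values are read counts divided by gene length and depth, so genes can be compared. Predicted types were made from these transcripts, Gad1 and Gad2 among them, so levels by type are a description without a test. Levels and shares by type pool HC and 1 h mice and FOS+ and FOS− nuclei, and those of later DG nuclei pool all later groups. Of the 28 genes, 18 (CA3) to 23 (VIP and Ivy) had a mean above 0.5 in a type, against 28.2% to 34.8% of all 40198 genes. Within each role the highest gene was mostly the same across types. Slc12a5 led the chloride transporters, Glrb the glycine receptor genes and Abat the breakdown enzymes in all of them, whereas Gabra2 led the GABA-A subunits in DG, CA1, CA3, Sub and VIP nuclei, Gabrb2 in Ivy, Pvalb and Th nuclei, and Gabra4 in later DG nuclei. The median level of the 28 genes ran from 1.55 in CA1 to 3.03 in VIP nuclei, and that of all genes did not exceed 0.083.

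Among the GABA-A subunits, Gabra2 and Gabrb1, an alpha and a beta subunit, were the most abundant in the principal cells. Gabra2 stood at 7.89 ± 0.92 (n = 3 mice) in DG, 7.63 ± 1.52 (n = 6) in CA1, 7.94 ± 0.01 (n = 3) in CA3 and 4.87 ± 1.28 (n = 6) in VIP nuclei. The DG mice (7.27 to 8.95) all lay above the VIP mice (3.23 to 6.98), whereas DG, CA1 and CA3 overlapped. Gabrb1 followed the same order, with 6.97 ± 0.84 in DG, 6.10 ± 1.27 in CA1, 7.23 ± 0.31 in CA3 and 3.07 ± 1.70 in VIP nuclei. Over single nuclei, the Gabrb1 median was 7.55 in the 7 Th nuclei, 7.46 in DG and 6.44 in CA1 nuclei. Gabra5, the alpha subunit found mostly outside the synapse in the hippocampus, was at 4.83 ± 0.80 in DG and 5.75 ± 0.51 in CA3, and at 0.43 ± 0.40 in VIP nuclei. Here too the DG mice (4.13 to 5.71) and the VIP mice (0 to 1.01) did not overlap.

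Gabrd, whose delta subunit forms extrasynaptic receptors with alpha4 in granule cells, was at 3.09 ± 1.64 in DG, 0.63 ± 0.66 in CA1, 0.19 ± 0.32 in CA3 and 0.05 ± 0.11 in VIP nuclei. The lowest of the 3 DG mice (1.63) was level with the highest of the 6 CA1 mice (1.63) and above all CA3 and VIP mice. Gabra4 itself was at 4.65 ± 1.61 in DG, 4.06 ± 1.83 in CA1 and 1.27 ± 1.21 in VIP nuclei. DG and CA1 overlapped over their whole range, and the DG mice (2.93 to 6.13) lay above the VIP mice (0 to 2.63).

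Gabra3, another alpha subunit, was almost absent from DG nuclei at 0.13 ± 0.12, with counts in 12.8% of 78 nuclei (Wilson 95% interval 7.12% to 22.0%). It was at 1.46 ± 0.99 in VIP, 1.73 ± 1.60 in CA1, 1.91 ± 0.31 in Sub and 3.78 ± 4.60 (n = 2) in Th nuclei. The Sub mice (1.57 to 2.38) lay above the DG mice (0 to 0.23), but the VIP and CA1 mice spread from near 0 upwards.

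Gabrb2 and Gabrg3 were highest in Ivy nuclei and were also found in Th and Pvalb nuclei. Gabrb2, a beta subunit of many synaptic receptors, was at 8.66 ± 0.94 in Ivy (n = 3), 7.42 ± 0.70 in Th (n = 2) and 4.83 ± 0.85 in Pvalb nuclei (n = 3), and at 3.25 ± 1.24 in DG nuclei of the first experiment. Gabrg3, a gamma subunit, was at 7.93 ± 0.51 in Ivy, 3.86 ± 1.26 in VIP and 0.21 ± 0.23 in DG nuclei. Over single nuclei, its median was 8.66 in Ivy, 5.06 in Th and 4.72 in Pvalb nuclei. The upper quartiles were 8.86, 8.30 and 8.50. For Gabrb2 the Ivy mice (7.68 to 9.56) lay above the DG mice (2.11 to 4.57) and overlapped the CA1 mice (1.62 to 8.59). The Ivy mice (7.52 to 8.50) exceeded every DG, CA1, CA3 and VIP mouse for Gabrg3, and the VIP mice (2.20 to 5.46) exceeded every DG mouse (0 to 0.46). Gabrg1, Gabre and Gabrq were at or below 0.97 in every type except for Gabrg1 in Th nuclei (2.22 ± 0.80).

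**Figure D1:**
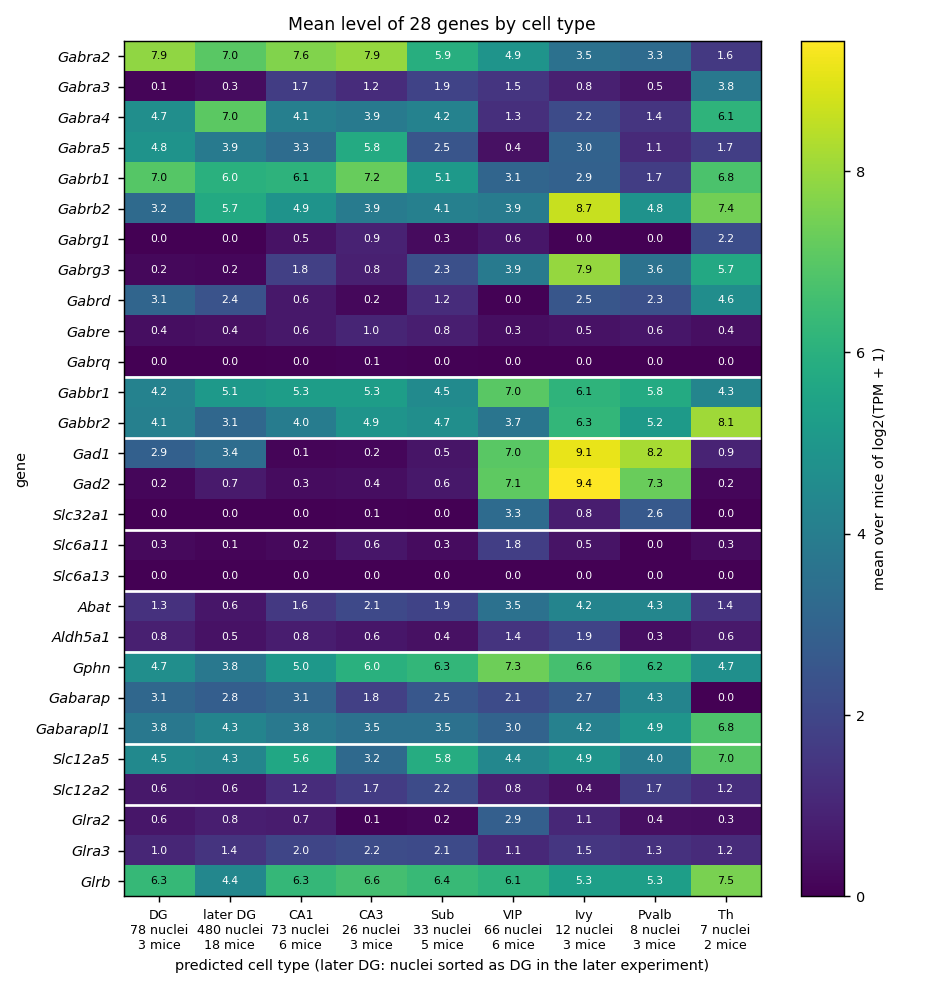
Heat map of the mean log2(TPM+1) over mice for the 28 genes (rows, divided by role) in 8 predicted cell types and the later DG nuclei (columns), with the value printed in each cell. Gabra2 is highest in DG, CA1 and CA3, where Gabrb1 is also high. Gad1 and Gad2 are highest in VIP, Ivy and Pvalb, and Gabrb2 and Gabrg3 in Ivy nuclei.

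Of these subunit genes, 9 lie in 3 chromosomal clusters of the GRCm38 genome (GENCODE annotation). Chromosome 5 carries Gabrg1 (70751047 to 70842617, minus strand), Gabra2 (70957597 to 71095849, minus), Gabra4 (71569749 to 71658308, minus) and Gabrb1 (71658113 to 72149037, plus). The last pair point away from each other, and their gene models share 196 bases. Gabrg1 and Gabra2 are neighbours 115 kb apart, yet Gabra2 had counts in 94.9% of DG nuclei and Gabrg1 in 0 of 78, which allows a share of up to 4.69% (Wilson). On chromosome 7, Gabrg3 (56716465 to 57387188, minus) and Gabra5 (57407672 to 57510059, minus) are 20.5 kb apart and had opposite orders of level, DG above VIP for Gabra5 and VIP above DG for Gabrg3. On chromosome X, Gabre, Gabra3 and Gabrq lie in a row, and only Gabra3 exceeded 1 in any type.

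At the level of the single nucleus, every DG nucleus of the first experiment had counts of at least 1 of the 4 alpha subunits measured, and 98.7% also had a beta subunit. Gabra4 and Gabrb1 were counted together in 92.3% of DG, 67.1% of CA1 and 25.8% of VIP nuclei. These shares depend on depth. With each nucleus thinned to 100000 counts they were 79.5%, 52.1% and 19.7%. The median number of the 11 subunits detected after thinning was 4 in DG, CA1, CA3 and Sub nuclei and 3 in VIP nuclei.

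Both GABA-B subunits, which work as a pair, were found in every type. Gabbr1, the subunit that binds GABA, was at 7.04 ± 1.40 in VIP (n = 6), 5.25 ± 0.92 in CA1 and 4.20 ± 2.20 in DG nuclei (n = 3). The VIP mice (5.78 to 8.92) lay above the DG mice (1.66 to 5.54) and overlapped the CA1 mice (3.86 to 6.26). Gabbr2, the subunit that couples to G proteins, was at 8.10 ± 0.45 in Th and 6.26 ± 1.30 in Ivy nuclei and between 3.14 and 5.16 elsewhere.

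The genes of GABA synthesis set the interneurons apart, and in DG the 2 enzymes parted. Gad1 (GAD67) was at 9.11 ± 0.39 in Ivy, 8.21 ± 1.53 in Pvalb and 7.02 ± 2.46 in VIP nuclei. In DG it was at 2.88 ± 1.69 (mice 1.37 to 4.70), and in CA1 at 0.15 ± 0.08 (mice 0 to 0.24), so that these ranges did not overlap. Gad2 (GAD65) was at 0.17 ± 0.04 in DG and 0.33 ± 0.20 in CA1, against 7.11 ± 1.28 in VIP nuclei. Slc32a1, the vesicular transporter, was at 3.30 ± 2.24 in VIP and 2.64 ± 1.29 in Pvalb nuclei and at 0 in every DG mouse of the first experiment.

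At 100000 counts per nucleus, Gad1 was counted in 53.8% of 78 DG nuclei (Wilson 95% interval 42.9% to 64.5%) and in 1.37% of 73 CA1 nuclei (0.242% to 7.36%). CA1 and CA3 principal cells are given beside DG because they are not known to make GABA. The predicted types used Gad1 and Gad2, so low shares there may be set in part by the labelling. In CA3, 0 of 26 nuclei had a count, which allows up to 12.9%. Gad2 was counted in 7.69% of DG and 15.1% of CA1 nuclei at that depth. Before thinning, the shares for Gad1 were 69.2% in DG and 28.8% in CA1.

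Within DG, Gad1 was uneven between nuclei. These were 25 HC, 27 1 h FOS− and 26 1 h FOS+ nuclei, so the spread and the shares mix sorted groups. The lower quartile over 78 nuclei was 0, the median 1.85 and the upper quartile 7.77, and the 43 nuclei above 1 had a median of 7.69. Over the 64 VIP nuclei above 1 the median was 8.63, so the DG nuclei selected in this way lay lower. In the 480 later DG nuclei the quartiles were 0, 1.27 and 7.27, and 249 nuclei exceeded 1. Gad1 was seen with Slc32a1 in 0 of 78 DG nuclei and in 3 of the 480 later ones, against 49 of 66 VIP nuclei. Gad1 without Gad2 occurred in 46.2% of DG and 3.03% of VIP nuclei.

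**Figure D2:**
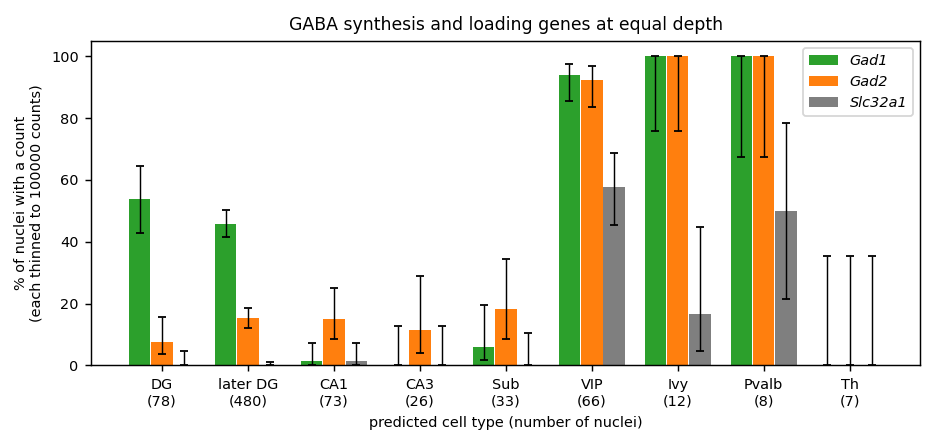
Share of nuclei (%) with at least 1 count of Gad1, Gad2 or Slc32a1 after thinning each nucleus to 100000 counts, by predicted cell type with the number of nuclei in brackets, and with Wilson 95% intervals as error bars. Gad1 reaches 53.8% in DG and 45.8% in later DG nuclei, where Slc32a1 is at 0% and 0.208%, whereas all 3 genes are counted in VIP, Ivy and Pvalb nuclei.

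The promoter of Gad1 is shown because Gad1 levels in mice of the predicted types DG and CA1 did not overlap. Between the PC and NC gates, given below, Gad1 did not pass by edgeR. The promoter also holds the binding motif of EGR factors, which are induced by activity. The stretch runs from 250 bases before to 30 bases after the RefSeq start (GRCm38.p6, chr2:70561879-70562158, plus strand) and lies inside the longer GENCODE gene (70553072 to 70602014). The capitals mark the motif GCGGGGGCG read on the other strand, with its first base at position -7 from the start.
Gad1: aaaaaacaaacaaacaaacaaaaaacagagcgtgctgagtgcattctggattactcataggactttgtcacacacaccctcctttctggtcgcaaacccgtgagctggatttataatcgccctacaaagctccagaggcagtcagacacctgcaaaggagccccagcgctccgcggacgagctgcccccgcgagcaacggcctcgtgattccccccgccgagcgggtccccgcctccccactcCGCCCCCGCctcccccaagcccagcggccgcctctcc

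The transporters that clear GABA were scarce in these neuronal nuclei. Slc6a11 (GAT3), best known from astrocytes, was highest in VIP nuclei at 1.75 ± 0.80, and Slc6a13 (GAT2) was at 0 in every type of the first experiment. Abat, the transaminase that starts GABA breakdown, was at 3.51 ± 1.78 in VIP, 4.32 ± 3.52 in Pvalb and 1.33 ± 0.47 in DG nuclei. The VIP mice (1.78 to 5.94) lay just above the DG mice (0.79 to 1.67). Aldh5a1, the next enzyme, did not exceed 1.90 in any type.

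Gphn was at 7.34 ± 0.87 in VIP, 6.65 ± 0.51 in Ivy and 4.67 ± 0.80 in DG nuclei, and the VIP mice (5.86 to 8.19) lay above the DG mice (3.98 to 5.54). Gabarap and Gabarapl1, which belong to the receptor trafficking and autophagy machinery, lay between 0 and 4.26 and between 3.02 and 6.82 over the types.

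Slc12a5 (KCC2), the exporter that keeps chloride low in mature neurons, exceeded the importer Slc12a2 (NKCC1) in every type, with 4.46 ± 1.76 against 0.60 ± 0.71 in DG and 5.62 ± 1.14 against 1.19 ± 1.59 in CA1. Their difference was smallest in CA3 (3.23 ± 1.03 against 1.67 ± 1.02). Of the glycine receptor genes, Glrb, the beta subunit that binds gephyrin, was between 5.30 and 7.54 in the types of the first experiment. Glra3 was between 1.01 and 2.20, and Glra2 reached 2.85 ± 1.72 in VIP nuclei and 1.05 or less elsewhere.

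To test differences between classes of nuclei without using the predicted types, the FOS− nuclei of each mouse were summed by gate. PC was represented by 3 mice, NC by 2, PN by 4 and NN by 4, with HC and 1 h mice together. With the same number on different dates counted as different mice, each mouse gave nuclei to 1 gate. No sorting date was shared between gates, so that gate, mouse and date cannot be told apart. Values are summed counts as CPM, which are not divided by gene length, and the test was the quasi-likelihood test of edgeR with Benjamini-Hochberg adjustment over 19259 genes. Of the 28 genes, 26 passed the filter on low counts in this fit. A filter passed through 1 gate alone favours genes that differ, so the counts below are read against the share of all tested genes that passed.

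PN exceeded PC in Gabra3 and Gad2 and was lower in Gabra2. These were 3 of the 26 genes, against 1.27% of all genes tested. Gabra3 had 35.4 and 29.1 CPM in the 1 h PN mice and 58.0 and 107 in the HC PN mice, and 0.0767, 0.183 and 0 in the 3 PC mice. All 4 PN mice were thus far above the PC mice, where 7 counts were found in all, and the log2 fold change was 8.78 (SE 1.21, adjusted p = 0.00653 by edgeR). Gad2 had 274 to 1105 CPM in the PN mice and 0.453 to 0.665 in the PC mice, a log2 fold change of 9.70 (SE 1.55, adjusted p = 0.0121 by edgeR). Gabra2 had 181, 228, 359 and 366 CPM in the PN mice and 795, 930 and 933 in the PC mice. The groups did not overlap, and the log2 fold change was -1.86 (SE 0.35, adjusted p = 0.0293 by edgeR).

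As mean log2(TPM+1) per nucleus, Gabra3 was at 1.72 and 0.90 in the 1 h mice and 1.92 and 1.62 in the HC mice of PN and 0.04, 0.23 and 0 in the PC mice, and the difference was 1.45 (adjusted p = 0.0382 by limma). The Gabra3 call was kept without each of the 7 mice in turn. That of Gad2 was lost without any 1 of the 3 PC mice (adjusted p = 0.0559 to 0.0671 by edgeR), and that of Gabra2 without any PC mouse or either HC PN mouse (0.0610 to 0.101). The PN gate also held 6 nuclei predicted as thalamus (Th), 5 from HC mouse 5 and 1 from 1 h mouse 5, and Gabra3 was high in Th nuclei. Without them, an alternative added after the data were seen, the log2 fold change of Gabra3 was 9.00 but no longer passed (adjusted p = 0.0695 by edgeR), and Gad2 and Gabra2 passed. DESeq2 called 11 of the genes (Gabra2, Gabra3, Gabra4, Gabra5, Gabrb1, Gabrb2, Gabrg1, Gabrg3, Gad2, Gphn and Slc32a1), where it called 12% of all genes. Limma called 11 (Gabra2, Gabra3, Gabra5, Gabrb1, Gabrd, Gabrg3, Gad1, Gad2, Glra2, Slc32a1 and Slc6a11), where it called 6.09% of all genes. The median log2 fold change was 0.57 over the 26 genes and 0.10 over all 19259.

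Gad1 was the 1 gene of 26 to pass between PN and NC, where 0.109% of all genes did. It had 449 to 1068 CPM in the 4 PN mice and 0.466 and 2.41 in the 2 NC mice. All PN mice lay above both NC mice, with a log2 fold change of 8.84 (SE 1.40, adjusted p = 0.0452 by edgeR). The call was lost without each of the 6 mice in turn (adjusted p = 0.0502 to 0.406 by edgeR), while the log2 fold change stayed between 8.11 and 10.3. Gabra5 (-3.42, SE 1.31, adjusted p = 0.478) and Glrb (1.03, SE 0.40, adjusted p = 0.483) did not pass by edgeR. DESeq2 called Gad1 and Glra2 (5.39% of all genes), and limma called Gabra5, Gad1, Gad2 and Glra2 (2.36% of all genes).

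Between PC and NC, Gabra3 was the 1 gene of 26 to pass, against 0.208% of all genes. It had 9.21 and 25.1 CPM in the NC mice and 0.183 or less in the PC mice, so the groups stood apart, with a log2 fold change of -7.18 (SE 1.17, adjusted p = 0.0377 by edgeR). As mean log2(TPM+1) per nucleus, Gabra3 was at 0.48 and 0.83 in the NC mice, and the difference of -0.57 did not pass (adjusted p = 0.642 by limma). Gad1 had 50.7, 152 and 249 CPM in the PC mice, all above the 0.466 and 2.41 of the NC mice, but with a log2 fold change of 6.85 (SE 1.29) it did not pass (adjusted p = 0.0702 by edgeR). Gad2 differed between the 2 NC mice themselves, at 1.87 CPM in the HC mouse and 125 in the 1 h mouse (log2 fold change -6.48, SE 1.41, adjusted p = 0.138 by edgeR). The NC gate held 2 nuclei predicted as VIP, both from that 1 h mouse. Without any 1 of the 5 mice the Gabra3 call was lost (adjusted p = 0.0884 to 0.153 by edgeR), as it was when nuclei predicted as Th were left out of the joint fit (0.347). DESeq2 called 6 genes, Gabra3, Gabrb1, Gabrg3, Gad1, Gad2 and Slc32a1 (5.7% of all genes), and limma called 0. The median log2 fold change over the 26 genes was 0.30 for PC against NC and 0.67 for PN against NC, beside 0.00 and 0.06 over all genes.

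**Figure D3:**
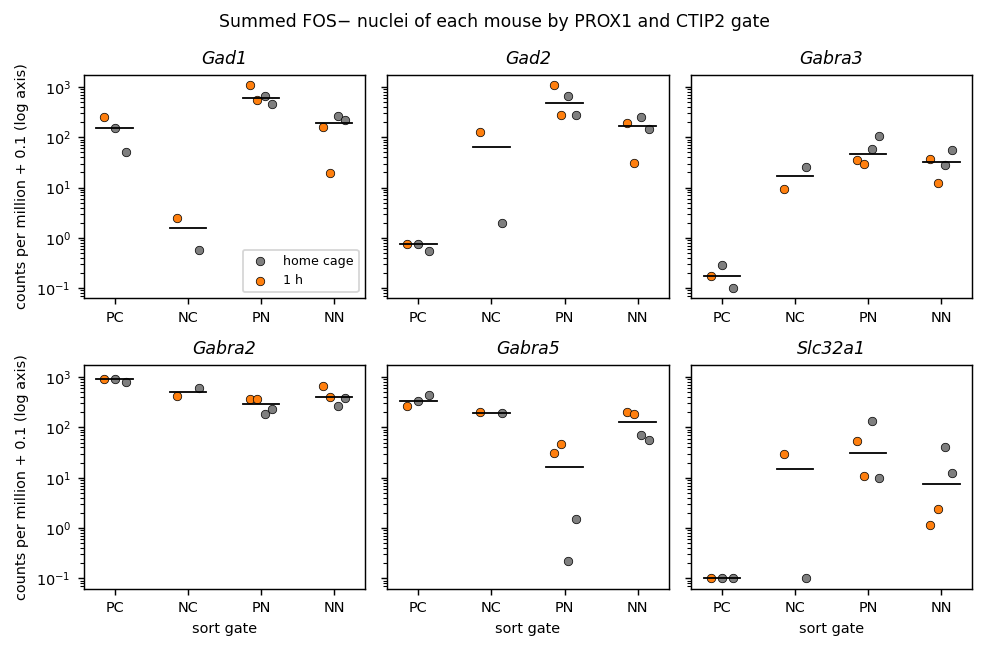
CPM plus 0.1 (log axis) in the summed FOS− nuclei of each mouse, by sort gate, for 6 of the genes. Each point is a mouse (grey HC, orange 1 h) and each bar the median over mice. Gabra3 is near the floor in PC only, Gad1 is low in NC only, and Gabra2 is highest in PC.

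Counted by levels in place of tests, 8 of 24 genes above 0.5 had PN mice all above the PC mice (11.8% of all genes), namely Gabra3, Gabrg3, Gad1, Gad2, Slc32a1, Slc6a11, Gphn and Glra2. In 4 they were all below (8.26% of all genes), namely Gabra2, Gabra5, Gabrb1 and Gabrd. For PC against NC, 5 of 24 were all above (8.75% of all genes) and 7 all below (25.3%), and for PN against NC 8 of 25 were above (7.32%) and 2 below (15.6%).

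In DG nuclei, 1 h after exposure, none of the 28 genes passed between FOS+ and FOS− nuclei, where 0.0451% of all 24405 genes did, and 1 had an unadjusted p under 0.05. DESeq2 and limma called 0 as well. Both sums came from the same mouse. That mouse, aged 8.7 weeks, was sorted on another date than the 2 HC mice of 7.75 and 8.57 weeks, so that exposure, date and age cannot be told apart in the comparisons with HC. Gad1 had 249 CPM in its FOS− nuclei (27) and 619 in its FOS+ nuclei (26), against 152 and 50.7 in the 2 HC mice. The FOS+ sum was the highest of the 4, and the log2 fold change from HC of 2.81 (SE 1.21) did not pass (adjusted p = 0.772 by edgeR). Gad1 is among the genes that the study had singled out on these nuclei. Gabarap had 96.6 CPM in FOS+ and 26.8 in FOS− nuclei (log2 fold change 2.15, SE 1.01, adjusted p = 1.0 by edgeR), and Gabrb2 had 197 and 128. Aldh5a1 (-6.86, SE 4.36) and Glra2 (-4.48, SE 3.36) came next by the ratio of fold change to SE and did not pass. DG markers summed to 12.6 in the FOS+ and 19.8 in the FOS− nuclei, and interneuron markers to 0.131 and 0.128, and their part in these values was not tested. Against HC, 0 of 28 genes passed in FOS+ (0.27% of all genes, 2 of 28 at an unadjusted p under 0.05) and 0 of 28 in FOS− nuclei (0.0041% of all genes, 0 at that p). DESeq2 called Aldh5a1 in FOS+ nuclei (8.09% of all genes) and 0 in FOS− nuclei, and limma 0 in both. The next genes by that ratio were Gabrb2 (1.80, SE 0.67, adjusted p = 0.597) and Glra3 (1.96, SE 1.04, adjusted p = 0.844) in FOS+, and Gabarap (-1.93, SE 0.93), Gabrg3 (3.52, SE 2.71) and Gabrb2 (0.87, SE 0.67), each with an adjusted p of 1.0 by edgeR, in FOS− nuclei.

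At 4 h after exposure, Gabrb2 was higher than in the home cage. It was the 1 gene of 28 to pass, against 0.246% of all genes, and 4 of 28 had an unadjusted p under 0.05. DESeq2 called Gabrb2 (4.61% of all genes), and limma Gabra4 and Gabrb2 (4.48% of all genes). The level of Gabrb2 was 7.96 and 5.98 in the 2 mice of 4 h and 3.06 and 2.11 in the 2 HC mice, or 706 and 540 against 98.0 and 31.9 CPM. Gabrb2 and Gabra4 were among the genes the study had singled out on these nuclei, so this is not independent evidence. Both 4 h mice exceeded both HC mice, with a log2 fold change of 3.49 (SE 0.62, adjusted p = 0.0131 by edgeR). The median log2 fold change was 0.32 over the 28 genes and 0.23 over all genes. The call was lost without HC mouse 7, which gave 5 nuclei (log2 fold change 2.89, adjusted p = 0.313), and without 4 h mouse 17 (3.34, adjusted p = 0.0681 by edgeR). All 4 h nuclei were sorted for ARC and in the later experiment, and the part of either in this difference was not tested. DG markers summed to 12.7 and 13.5 in the 4 h mice and to 20.0 and 21.0 in the HC mice.

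Gabra4 pointed the same way without passing. It was at 8.13 and 8.01 in the 4 h mice and at 4.90 and 2.93 in the HC mice, or 1028 and 1038 against 424 and 383 CPM. The mice did not overlap, and the log2 fold change of 1.61 (SE 0.46) had an adjusted p of 0.303 by edgeR. Gabrq was at 0 counts in HC and at 3.95 and 0.0201 CPM at 4 h, so that 1 mouse carried it. Against a floor of 3 counts over the HC group this is at least 24.7-fold higher (adjusted p = 0.654 by edgeR). Of 20 genes above 0.5, 6 had both 4 h mice above both HC mice (17.3% of all genes) and 4 had them below (26.5%). The lower 4 were Gabbr2, Abat, Gabarap and Glrb.

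At 5 h, Gabrb2 was still above the home cage in all 4 mice, at 312, 331, 350 and 467 CPM against 98.0 and 31.9. The log2 fold change was 2.52 (SE 0.56), and the adjusted p of 0.0685 missed the threshold by edgeR, so 0 of 28 genes passed (0.262% of all genes, 4 of 28 at an unadjusted p under 0.05). DESeq2 called Abat, Gabra3, Gabrb2 and Gad2 (9.05% of all genes), and limma Abat, Gabra4, Gabrb2 and Glrb (13% of all genes). Abat had 0.195 to 1.41 CPM in the 5 h mice and 40.5 and 52.3 in the HC mice (log2 fold change -5.87, SE 1.99, adjusted p = 0.319 by edgeR). Gabra3 (5.27, SE 2.17, adjusted p = 0.435) did not pass either. By levels, 2 of 20 genes, Gabra4 and Gabrb2, had all 5 h mice above both HC mice (5.61% of all genes) and 4 had them below (19.7%). The 5 h mice came from 2 sorting dates. Mice 8 and 9, which shared 1 date, had more Gabra4 (784 and 826 CPM) than mice 22 and 23 (453 and 510), and Gabrb1 was at 417 and 427 CPM in the first pair and 175 and 86.6 in the second. Between 5 h and 4 h, 0 of 28 genes passed (0% of all genes, 3 of 28 at an unadjusted p under 0.05), and DESeq2 and limma called 0. Abat (-5.39, SE 1.95) and Gabrq (-5.09, SE 1.87) had adjusted p = 0.835 by edgeR. Gabra4 differed by a log2 fold change of -0.92 (SE 0.37, adjusted p = 0.835 by edgeR), and all 4 mice of 5 h lay below both mice of 4 h. By levels 0 of 19 genes had the 5 h mice above (3.43% of all genes) and 4 had them below (12.2%), namely Gabra4, Gabra5, Gabrb1 and Gabarapl1.

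**Figure D4:**
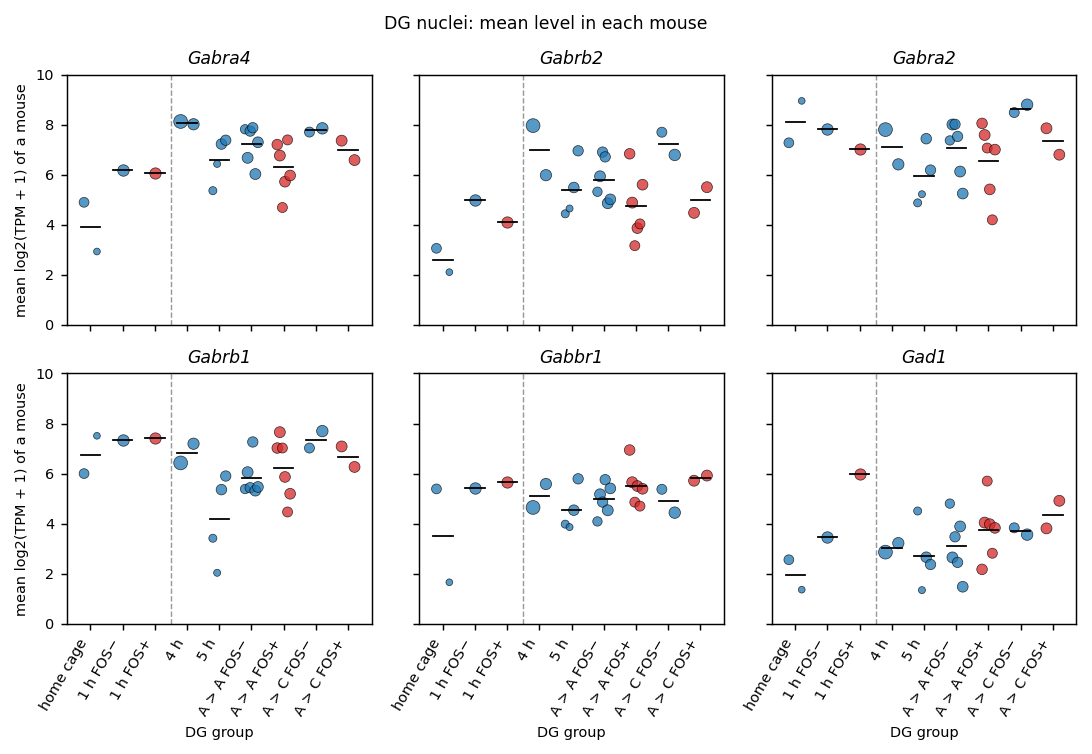
Mean log2(TPM+1) of 6 genes in the DG nuclei of each mouse, by group. Each point is a mouse (blue FOS−, red FOS+, size by number of nuclei), each bar the mean of the group, and the dashed line divides the first from the later experiment. Gabrb2 is lowest in the 2 HC mice, and Gad1 is highest in the single 1 h FOS+ sum.

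The promoter of Gabrb2 is shown because Gabrb2 was the only gene of the 28 called between DG groups by edgeR. RefSeq gives it 3 starts, and the window of 1 of them holds the motif marked here. The stretch covers 250 bases before to 30 bases after that start (GRCm38.p6, chr11:42420190-42420469, plus strand) of a gene that GENCODE places at 42419757 to 42629028. The capitals mark TGACG, the core of the cAMP response element bound by CREB, read on the other strand with its first base at position -1. The windows of the other two starts did not hold it.
Gabrb2: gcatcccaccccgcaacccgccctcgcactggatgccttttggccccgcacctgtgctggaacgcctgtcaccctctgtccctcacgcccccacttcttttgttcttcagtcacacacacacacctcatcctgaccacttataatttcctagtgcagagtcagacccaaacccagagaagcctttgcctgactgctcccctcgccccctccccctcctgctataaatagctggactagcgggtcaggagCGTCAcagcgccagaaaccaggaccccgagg

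Windows from 250 bases before to 50 after a start were found for 25 of the 28 genes, 32 windows in all, and were searched on both strands for 5 motifs of activity-linked factors. TGACG was in 4 windows (12.5%, against 20.8% of all 32851 promoters), those of Aldh5a1, Gabrb2, Gad2 and Glrb. The full element TGACGTCA, which contains TGACG, was in 0 (1.79% of all). GCGGGGGCG was in 2, of Gad1 and Glra3 (6.25%, against 2.91%). The AP-1 motif TGANTCA was in 1, of Slc12a5 (3.13%, against 7.81%), and the E-box CAGCTG was in 2, of Glra3 and Slc6a13 (6.25%, against 16.3%).

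When mice returned to A (A > A), none of the 28 genes passed between FOS+ and FOS− nuclei, where 0.041% of all genes did, and 4 of 28 had an unadjusted p under 0.05. Each group had 6 mice, and 4 of them (24 to 27) gave both. Mice 19 and 20 gave FOS− nuclei only, under the same numbers on different sorting dates and at different ages, and each was counted as 1 mouse. Mice 15 and 16 gave FOS+ nuclei only and were sorted on another date than mice 19 and 20. Gabra4 ranged from 591 to 1398 CPM in the FOS− sums and from 283 to 727 in the FOS+ sums. It was lower in the FOS+ nuclei of mouse 24 (859 to 283), mouse 25 (1317 to 500) and mouse 27 (920 to 362) and higher in those of mouse 26 (591 to 727). The ranges overlapped, and the log2 fold change of -0.99 (SE 0.26) had an adjusted p of 0.214 by edgeR. With mice 19 and 20 divided by date it was -1.06 (adjusted p = 0.121 by edgeR). On dates with both FOS+ and FOS− nuclei only, it was -0.90 (adjusted p = 0.476 by edgeR).

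With the mouse as a replicate block, over the 4 mice with both sums, 0 of 28 genes passed and the log2 fold change of Gabra4 was -0.90 (adjusted p = 0.665 by edgeR). DESeq2 called Gabra4 (adjusted p = 0.0126, where it called 3.98% of all genes), which is among the genes the study had singled out on these nuclei. Gabrb2 went from 239 to 123, 539 to 108 and 344 to 179 CPM in mice 24, 25 and 26 and from 226 to 253 in mouse 27 (log2 fold change -0.72, SE 0.33, adjusted p = 0.298 by edgeR). Slc6a13, the GABA transporter GAT2, had 486 counts in the FOS− sums and 1 in the FOS+ sums (adjusted p = 0.265 by edgeR), and its direction turned without mouse 25, which left a log2 fold change of 1.34. The median log2 fold change was 0.14 over the 28 genes and -0.02 over all genes. No gene of the 20 above 0.5 had FOS+ and FOS− mice that did not overlap, against 1.61% of all genes higher and 1.11% lower.

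**Figure D5:**
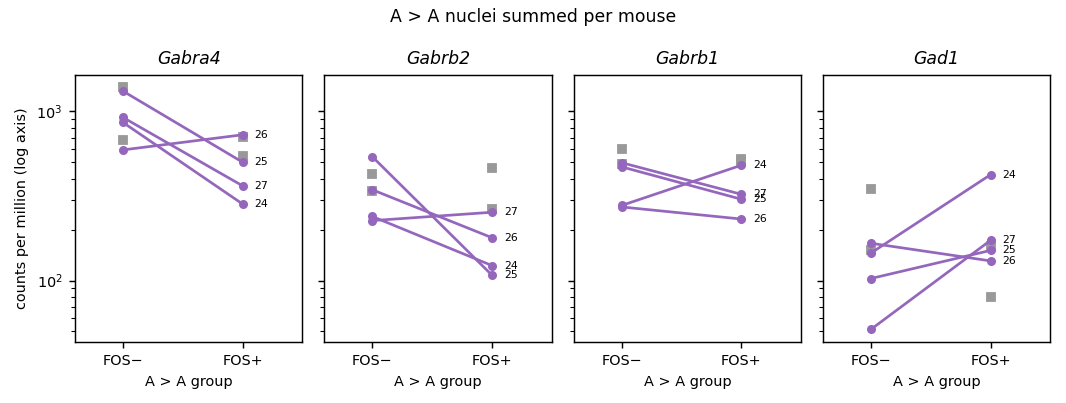
CPM (log axis) in the summed A > A nuclei of each mouse, FOS− and FOS+, for 4 genes. Lines join the sums of mice 24 to 27, and grey squares are mice with 1 kind of sum. Gabra4 is lower in FOS+ nuclei in 3 of the 4 joined mice, and so is Gabrb2, with a different exception.

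After a different second environment (A > C), the FOS+ mice (13 and 14) and FOS− mice (11 and 12) were sorted on different dates, so that FOS and date cannot be told apart. Gabrb2 had 159 and 175 CPM in FOS+ and 506 and 480 in FOS− nuclei. The mice did not overlap, and the log2 fold change of -1.49 (SE 0.58) did not pass (adjusted p = 0.899 by edgeR). No gene of 28 passed (0% of all genes), 1 had an unadjusted p under 0.05, and DESeq2 and limma called 0. Aldh5a1 (-6.02, SE 3.03, adjusted p = 0.899) came next. Slc6a13 was at 0 counts in FOS+ and 417 in FOS− nuclei, at least 97.3-fold lower in FOS+ against a floor of 3 counts over the group, with all 417 in 1 of the 2 FOS− mice. By levels, 6 of 20 genes had both FOS+ mice below both FOS− mice, where 36.1% of all genes did, and 1, Gabbr1, had them above, where 16.1% did. The FOS+ to FOS− difference of A > A against that of A > C was tested itself and gave 0 of 28 genes (0% of all genes, 0 at an unadjusted p under 0.05, 0 by DESeq2 and limma). Aldh5a1 was at 5.82 (SE 3.19), Gabre at 2.56 (SE 1.60) and Gabra4 at -0.82 (SE 0.51), each with an adjusted p of 1.0 by edgeR.

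A > A and A > C were also compared directly. In FOS+ nuclei 0 of 28 genes passed (0% of all genes, 1 at an unadjusted p under 0.05), with Aldh5a1 at 0.133 to 47.0 CPM in the 6 A > A mice and 0.0523 and 0.107 in the 2 A > C mice (log2 fold change 8.01, SE 3.20, adjusted p = 0.858 by edgeR). DESeq2 called Aldh5a1 there (5.26% of all genes) and limma 0. Gabrg1 had 168 counts in the A > A and 0 in the A > C sums, at least 10.3-fold higher in A > A against a floor of 3 counts over the group, and Gabrq had 14 and 0 counts. Both had an adjusted p of 0.990 by edgeR. In FOS− nuclei 0 of 28 passed (0% of all genes, 1 at that p, 0 by DESeq2 and limma), and Gabarap had 42.2 to 109 CPM in A > A and 30.0 and 36.4 in A > C mice (log2 fold change 1.36, SE 0.61, adjusted p = 0.964 by edgeR). Gabre (-2.02, SE 1.01) and Gabrg3 (4.48, SE 2.48) did not pass. By levels, 3 of 20 genes had FOS+ A > A mice above both A > C mice (4.93% of all genes) and 0 below (3.84%), and in FOS− nuclei 0 of 21 were above (1.43%) and 2, Gabra2 and Gabbr2, below (9.48%).

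In CA1 nuclei, 0 of 23 genes passed in any of the 3 comparisons of FOS+, FOS− and HC, as did 0% of all genes, 0 had an unadjusted p under 0.05, and DESeq2 and limma called 0. The level of Slc12a5 was 7.09, 6.74 and 6.01 in the 3 HC mice, 5.33, 5.16 and 5.39 in the 1 h FOS− sums and 4.43, 3.81 and 4.09 in the 1 h FOS+ sums. The 3 groups did not overlap. CA1 markers summed to 9.61 to 21.1 log2 units in the HC, 8.51 to 12.9 in the FOS− and 1.60 to 13.8 in the FOS+ sums. CA3 markers summed to 0.736 to 2.67, 2.44 to 5.85 and 3.00 to 12.7, and Slc12a5 was lower in CA3 than in CA1 nuclei. The part of either in the Slc12a5 levels was not tested. FOS+ mice were all below HC in 2 of 22 genes (4.28% of all genes), FOS− mice in 1 of 22 (3.85%), and FOS+ below FOS− in 1 of 19 (5.36%), with 2 above (5.41%). Its CPM did overlap (105 to 309 in HC, 164 to 226 in FOS+), and it was not among the 3 genes with the largest ratio of fold change to SE. Those were Gabrd, Gabarapl1 and Aldh5a1 between FOS+ and FOS− nuclei, with log2 fold changes of -4.23 (SE 2.62), 1.90 (SE 1.29) and 3.69 (SE 2.55). Against HC they were Gabrd (-5.12, SE 2.74), Gabrb1 (1.03, SE 0.57) and Gabrb2 (-1.54, SE 1.31) in FOS+, and Gabra3 (-4.72, SE 2.83), Gabrb1 (0.92, SE 0.57) and Glra3 (-2.12, SE 1.42) in FOS− nuclei. Slc12a5 was picked out after its values were seen.

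In VIP nuclei, 0 of 24 genes passed between FOS+ and FOS−, FOS+ and HC or FOS− and HC (0% of all genes). Before adjustment 0, 1 and 0 genes had p under 0.05, and DESeq2 and limma called 0. Gad1 was at 9.24 and 8.88 in the FOS+ sums, at 6.73, 6.86 and 2.04 in the FOS− sums and at 8.25, 7.39 and 7.95 in the HC sums. FOS+ lay above and FOS− below the HC mice. The FOS− sum of 2.04 held 2 nuclei, sorted in the NC gate. By levels, 4 of 24 genes had FOS+ mice all above FOS− mice (12.8% of all genes) and 0 below (6.52%). Against HC, 6 of 24 genes had FOS+ mice all above (11.2% of all genes), namely Gabra2, Gabra3, Gabra5, Gabrg1, Gad1 and Gabarapl1, and 0 below (7.16%). FOS− mice lay all below HC in 1 of 23 genes, Gad1 (4.66%), and above in 0 (3.45%). Gabra5 had 10.4 and 29.1 CPM in FOS+ and at most 1.11 in HC sums (log2 fold change 5.62, SE 1.92, adjusted p = 1.0 by edgeR), and against the FOS− sums its log2 fold change was 3.19 (SE 1.72, adjusted p = 0.974). Slc12a5 (1.74, SE 1.13) and Gabbr2 (-1.42, SE 1.08) came next in FOS+ against FOS− nuclei, and Gabbr2 (-2.0, SE 1.11) and Gabarapl1 (2.09, SE 1.5) in FOS+ nuclei against HC, each with an adjusted p of 1.0 by edgeR. Slc12a5 (-2.03, SE 1.06), Gabra2 (0.94, SE 0.55) and Glra2 (-2.30, SE 1.51) came first in FOS− nuclei against HC and did not pass.

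In Sub nuclei, 0 of 23 genes passed between FOS+ and FOS− at 1 h (0% of all genes, 4 of 23 at an unadjusted p under 0.05), while DESeq2 called Abat and Gabrb2 (3.51% of all genes) and limma 0. Gabrb2 had 9.09, 0.315 and 30.4 CPM in FOS+ and 556, 175 and 94.9 in FOS− sums. The FOS+ mice were all lower, and the log2 fold change of -4.46 (SE 1.45) had an adjusted p of 0.695 by edgeR. Abat was at 0.535, 294 and 91.3 CPM in FOS+ and at 1.14 or less in FOS− sums (7.36, SE 2.12, adjusted p = 0.695), with 1 FOS+ mouse as low as the FOS− mice. Gabrg1 was at 0 counts in FOS+ and 170 in FOS− sums, at least 77.6-fold lower in FOS+ against a floor of 3 counts over the group. These sums held 2 to 5 nuclei each. In CA3, with 2 mice, 0 of 19 genes passed (0% of all genes, 1 at an unadjusted p under 0.05, 0 by DESeq2 and limma), and Glrb had 76.3 and 95.0 CPM in FOS+ against 284 and 198 in FOS− sums (log2 fold change -1.52, SE 0.54, adjusted p = 0.796 by edgeR). The sums did not overlap. Slc6a11 (4.93, SE 2.46) and Abat (3.69, SE 1.98) did not pass.

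Whether the FOS+ to FOS− difference at 1 h itself differed between cell types was tested in a joint fit of DG, CA1 and VIP nuclei. None of 26 genes passed for DG against CA1 or DG against VIP (0.00458% of all genes each, 0 of 26 at an unadjusted p under 0.05) or for CA1 against VIP (0% of all genes, 1 at that p). DESeq2 and limma called 0 in each. The 1 was Gabra5, with a difference of -4.06 (SE 1.66, adjusted p = 0.851 by edgeR), followed by Gad1 (-1.73, SE 1.49) and Gabbr2 (1.51, SE 1.42). For DG against CA1 the differences of Glra2, Glrb and Aldh5a1 came first, at -8.30 (SE 5.01), -2.54 (SE 1.56) and -10.38 (SE 7.15). For DG against VIP they were those of Gabra5 (-3.11, SE 2.31), Glra2 (-6.28, SE 4.70) and Slc12a5 (-2.55, SE 1.93). The adjusted p of each but the first was 1.0 by edgeR.

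Of 26 further genes of inhibitory synapses that were looked up, 24 were in the tables and 14 to 19 were tested per fit. In PN against PC, 1 of 16 passed (1.27% of all genes), Nsf, which recycles membrane fusion complexes, at 240 to 588 CPM in PN and 911 to 1485 in PC mice (log2 fold change -1.99, SE 0.35, adjusted p = 0.0188 by edgeR). That call was lost without HC mouse 6 or HC mouse 7 of the PC gate (adjusted p = 0.0663 and 0.0709 by edgeR). In DG, Iqsec3, a partner of gephyrin at inhibitory synapses, was 1 of 19 to pass against HC in the 1 h FOS+ nuclei (0.27% of all genes) and 1 of 19 at 4 h (0.246% of all genes). Iqsec3 had 6.79 and 24.4 CPM in the 2 HC mice, 518 in the 1 h FOS+ sum and 140 and 269 in the 4 h mice, so each exposed sum lay above both HC mice. The log2 fold changes were 5.24 (SE 0.89, adjusted p = 0.00986) and 3.96 (SE 0.80, adjusted p = 0.0358 by edgeR). The 1 h arm was 1 mouse, sorted on another date than the HC mice, and its spread was taken from the other groups. Without HC mouse 7, which gave 5 nuclei, neither call held (adjusted p = 0.213 and 0.576 by edgeR), and that of 4 h was also lost without mouse 17 (0.0508) or mouse 21 (0.263). By limma the 4 h log2 fold change was 1.36 (adjusted p = 0.337). No other gene of that list passed in these or the other comparisons.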

How the data were processed

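Single nuclei were sequenced with SmartSeq2. Per the labels and the study's methods, the authors trimmed 50-base single reads and aligned them to mm10 with RSEM and Bowtie, and deposited expected counts per gene and log2(TPM+1) values for each nucleus. Nuclei with at least 100000 aligned reads and 4000 genes above a log2 value of 1 were kept (818 of 912), and 35 FOS− nuclei with an Arc log2 value above 2.5 were left out. Genes without a value in some nucleus (30 of the count tables, 23 of the log2 tables) were left out.

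Expected counts as deposited were rounded and summed per mouse and group (at least 2 nuclei) and tested with edgeR 4.0.16 in R 4.3.3 (TMM scaling, filterByExpr, quasi-likelihood test, Benjamini-Hochberg adjustment over all genes, threshold 0.05). The SE is the fold change divided by the root of F. The scripts were tested on simulated data for 3 of the comparisons. Of 4-fold changes, edgeR recovered 0% for PN against PC, 0% for 4 h against HC and 12% for A > A. Of 16-fold changes it recovered 17%, 8% and 44%, so a gene that did not pass is not shown to be unchanged. Among unchanged genes, 5.15%, 4.24% and 8.02% had an unadjusted p under 0.05 by edgeR. DESeq2 1.42.0 and limma 3.58.1 were alternatives, with other scalings, filters, thresholds and leaving out each mouse. Python 3.11.15, pandas 2.3.3, scipy 1.17.1 and matplotlib 3.10.9 were used. Intervals are Wilson 95% intervals and cover counting error only, and PCR reads carry no molecular identifiers.

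The genes and lists were chosen with earlier results of these data known. Each gene called is given with its statistics and, where fewer than 3 were called, the 3 with the largest ratio of fold change to SE. The main fits did not pair sums by mouse, and pairing entered only in the alternative with the animal as a replicate block. After centring within groups, FOS+ and FOS− sums of the same mouse correlated at 0.0133 to 0.0602 on average. Those 2 values came from VIP and CA3, with 2 pairs each, where centring makes the value for different mice its negative. They do not measure how far the sums of a mouse depend on each other. Promoters are from RefSeq (GRCm38.p6).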

Additional observations from a re-analysis of the deposited data

Results flagged for a closer look

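Over 57 pairs of a gene and a DG group of 4 or more mice, 2 held a mouse far from the others, and chance alone gives such a gap in about 1 of 20. In the 5 h group, the level of Gabarapl1 in mouse 22 was 3.119, below the 3.938 to 4.09 of the other mice. In the A > A FOS+ group, the level of Glra2 in mouse 15 was 1.78, above the 0.7261 to 0.9254 of the other mice.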

How the results depend on the processing

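Of 336 counts of called genes under alternatives, 297 stayed within 1.5 times the main count. Most comparisons had a main count of 0, which stayed only as 0 again. Of 991 values of named genes, 933 kept direction and side of the threshold, 39 lost the call, 15 gained it and 4 turned. Most of these values belonged to genes not called, which could not lose a call. Among called genes, Gabra3 passed in 14 of 17 alternatives for PN against PC and 5 of 15 for PC against NC. Gad2 passed in 12 of 17 and Gabra2 in 9 of 17 for PN against PC. Gad1 passed in 6 of 16 for PN against NC, and Gabrb2 in 9 of 12 at 4 h against HC. The cause of these changes was not tested. PC against NC (main 1) gave 6 genes by DESeq2 and 0 by limma, without a low-count filter, in home cage animals only, at 500000 reads and 5000 genes, or without Th nuclei. PN against NC (main 1) gave 2 by DESeq2, 4 by limma and 0 in home cage animals, without read and gene thresholds, at the stricter ones, or with all FOS− nuclei kept. PN against PC (main 3) gave 11 by DESeq2, 11 by limma and 0 in home cage animals or at the stricter thresholds. At 4 h against HC (main 1) limma gave 2 and the stricter thresholds 0. Against a main count of 0, DESeq2 gave 4 and limma 4 at 5 h against HC, and DESeq2 gave 1 for 1 h FOS+ against HC, 1 for A > A, 1 for FOS+ A > A against A > C and 2 in Sub nuclei. Leaving out 1 mouse gave 0 to 1 genes for PC against NC, 4 h and 5 h against HC, 0 to 0 for PN against NC and 1 to 3 for PN against PC. With the animal as a replicate block, 0 genes passed in A > A, and no call changed there or in CA1, VIP, Sub and CA3. Without 1 mouse, the log2 fold change of Slc6a13 ran from -9.17 to 1.34 in A > A (turned without mouse 25) and from -11.65 to 0 in A > C (0 without mouse 12). That of Glra3 in CA1 FOS− nuclei against HC ran from -2.61 to 0.36 (turned without HC mouse 8) and turned with sums of at least 5 nuclei (0.63). With log2(TPM+0.1) the median level over the genes was 0.36 in DG, -0.21 in CA1 and 1.26 in VIP nuclei. Thinned to 100000 counts, the median detection was 30.1%, 26.7% and 45.5%.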
